A study of Mus musculus with 10 samples.

Results

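Cells numbered 11 in the authors' deposited clustering are endothelial cells of 2 kinds, a small lymphatic group marked by Ccl21a and Mmrn1 and a larger blood vessel group; Plvap was found in both. They were taken by that cluster number alone and made up 385 of the 44986 cells of a single-cell RNA sequencing experiment on mouse lung tumours. KP cells, a mouse lung cancer line, had been given by vein to syngeneic mice, whose lung tumours were seen by MRI. Mice then received SHP099, SX682, both drugs (Combination) or Vehicle for 11 days, and live cells of their tumour nodules were captured. SHP099 is an inhibitor of the phosphatase SHP2, which Ptpn11 encodes, and SX682 an inhibitor of the chemokine receptors CXCR1 and CXCR2. Each treatment was 1 pool of 3 hashtagged mice in 1 capture, which means that an effect of the capture cannot be told apart from that of the drug. Strain, age and sex are not given in the labels used here, and every group carried the same transplanted tumour line, with no group free of tumour.

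Lymphatic capillaries take up tissue fluid and leaving immune cells, and their endothelium is specified by the transcription factor Prox1 and draws dendritic cells and T cells in with the chemokine that Ccl21a encodes. Blood vessels of tumours carry capillary, sprouting (tip) and venous endothelium. Plvap forms the diaphragms of endothelial fenestrae and caveolae, tip cells express Apln and Esm1, and venules express the chemokine-binding receptor Ackr1 and the adhesion molecule Selp, to which leukocytes attach.

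Of the 385 cells, SHP099 mice 1 to 3 gave 8, 6 and 7, SX682 mice gave 52, 9 and 5, Combination mice gave 32, 28 and 32, and Vehicle mice gave 142, 35 and 29. The cells held 1557969 UMIs (counts of tagged transcripts), with a median of 3160 UMIs and 1517 genes a cell, against a median of 2025 UMIs over all cells. Between pools, 1009 cell barcodes recurred, and 16 of the 385 cells shared theirs with a cell of another pool, in no case with another cell of the same cluster. Levels below are in CPM, a gene's UMIs scaled to the total UMIs of the cells named. The 5′ chemistry used by the study does not scale counts with gene length, so levels are compared between cells and not between genes.

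All 14 general endothelial genes on the list used were detected. Cdh5, the adhesion molecule of endothelial junctions, reached 1268 CPM in cluster 11, against 18.0 CPM in all cells outside it, and a Cdh5 UMI was found in 359 of the 385 cells, against 5 of 937 cells of the neutrophil cluster, a class that should lack it. The 4 markers given for these cells were present as well. Ccl21a was at 811 CPM in cluster 11 and 2.34 CPM in all other cells, Mmrn1 (an extracellular protein of lymphatic endothelium and platelets) at 524 and 0.983 CPM, Plvap at 881 and 7.90 CPM, and the hyaluronan receptor Lyve1 at 849 and 11.2 CPM. Since the clustering used these genes, the values describe the cluster and are no test of it. Lyve1 and Plvap were not limited to it: the other endothelial cluster, number 10, of capillary type, had 1004 CPM of Lyve1 and 652 CPM of Plvap but 0 of Ccl21a in 881 cells.

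By position in the mm10 build, from GENCODE vM21, Ccl21a lies on chromosome 4 at 42772860 to 42773993, Mmrn1 on chromosome 6 at 60924976 to 60989378, Plvap on chromosome 8 at 71497765 to 71511752 and Lyve1 on chromosome 7 at 110850607 to 110863239, all protein-coding genes. Ccl21a has near-identical copies, so its count may hold or lack reads of these.

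The cells were split with short gene lists, 6 lymphatic genes (Ccl21a, Mmrn1, Lyve1, Prox1, Flt4, Reln) and 7 blood vessel genes (Plvap, Vwf, Flt1, Emcn, Ptprb, Selp, Podxl). A cell was placed on a side when that side's genes had at least 2 UMIs and at least 66.7% of the UMIs of both lists. This gave 48 lymphatic cells, 280 blood vessel cells and 57 that stayed unresolved, with median depths of 3266, 3376 and 2538 UMIs. Both Ccl21a and Mmrn1 were present in 38 of the 48 lymphatic cells. The other 10 had neither and rested mainly on Lyve1, 7 of them with no other lymphatic gene of the rule. Without Lyve1 in the rule, 38 cells were lymphatic, 331 were blood vessel and 16 were unresolved.

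The rule's lymphatic genes chose these cells, so their levels describe the split and are no test of it. All 6 were higher on the lymphatic side. Ccl21a had 5846 CPM there (95% Poisson interval 5528 to 6178, counting error only) and 0 UMIs in the 280 blood vessel cells, a difference of at least 2269.8-fold against 3 UMIs summed over that side. Mmrn1 had 3752 CPM on the lymphatic side and 0 on the blood vessel side, and Reln, a secreted matrix protein, 1328 CPM and 0. Prox1 was at 390 CPM on the lymphatic side and 1.72 CPM on the blood vessel side. No Ccl21a UMI was found in the 881 cells of cluster 10 or the 937 of the neutrophil cluster, which allows shares of cells with a UMI of up to 0.418% and 0.393% (upper 95% bounds, exact binomial). At median depths of 1440 and 1772 UMIs, these bounds do not limit the share of cells that express the gene.

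Genes outside the rule went the same way. All 12 lymphatic genes that the rule did not use were higher on the lymphatic side, with a median fold of 16.4 (each level + 10 CPM), where 796 of the 1698 genes at 100 CPM or more in the cluster were higher there and their median fold was 0.973. Fxyd6, a regulator of the sodium pump, was at 1161 CPM on the lymphatic side and 2.58 CPM on the blood vessel side, the transcription factor Maf at 1022 and 4.29 CPM, the surface glycoprotein Thy1 at 632 and 8.59 CPM, and Pdpn (podoplanin) at 334 and 1.72 CPM. Nts, which encodes neurotensin, had 316 CPM on the lymphatic side, in 11 cells, and 0 on the blood vessel side. The receptor for VEGF-C, Flt4, and its co-receptor Nrp2 stood at 873 and 864 CPM on the lymphatic side, against 57.5 and 113 CPM on the blood vessel side. Il7, a cytokine that lymphocytes need, was at 111 CPM on the lymphatic side with no UMI on the blood vessel side. As these cells had been clustered and then split by related genes, no test was made between the sides.

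**Figure D1:**
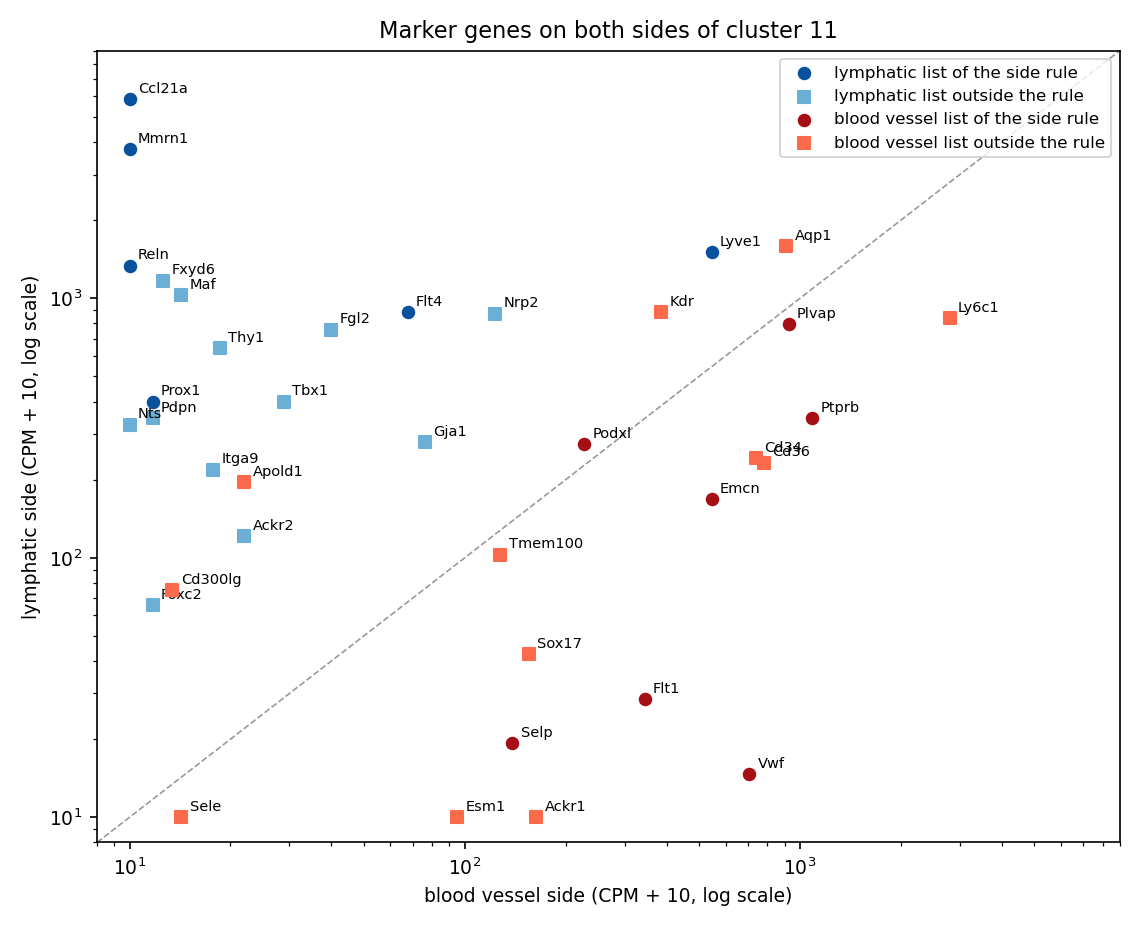
Level of each gene of the 4 marker lists on the lymphatic side (vertical axis, 48 cells) against the blood vessel side (horizontal axis, 280 cells), as CPM + 10 on log scales; each point is 1 gene and the dashed line marks equal levels. Lymphatic genes lie above the line, with Ccl21a, Mmrn1 and Reln at 0 on the blood vessel side, while Plvap lies near the line and Kdr and Aqp1 above it.

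Several further genes led the lymphatic side without being on any list. The iron oxidase Cp (ceruloplasmin) was at 1003 CPM there and 23.2 CPM on the blood vessel side, the iron-carrier-binding protein Lcn2 at 817 and 20.6 CPM, and the pentraxin Ptx3 at 339 and 0 CPM. Apod also led by fold, but 1 cell held 81 of its 82 UMIs. Cp was found in 36 of the 48 lymphatic cells and Lcn2 in 29, and no cell held more than 18.5% and 13.6% of their UMIs on that side.

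Plvap was shared by both sides, at 785 CPM on the lymphatic side (95% interval 671 to 912) and 915 CPM on the blood vessel side (861 to 972), although the rule counted it for the blood vessels. Vwf, the clotting factor carrier of large vessels and venules, was at 4.64 CPM on the lymphatic side and 695 CPM on the blood vessel side. Flt1, a VEGF receptor, was at 18.6 and 334 CPM. Of the 12 blood vessel genes outside the rule, 8 were higher on the blood vessel side, among them Cd34 (232 CPM on the lymphatic and 727 CPM on the blood vessel side) and Ly6c1 (831 and 2785 CPM). The 4 that were higher on the lymphatic side were the VEGF receptor Kdr (878 and 375 CPM), the water channel Aqp1 (1583 and 901 CPM), Cd300lg and Apold1. Lyve1 was likewise no divide, with 1499.8 CPM on the lymphatic side, 536 CPM on the blood vessel side and 2109 CPM in the unresolved cells.

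The blood vessel side in turn held a venular pattern and a pattern marked by Apln. Apln was on the lists used here for tip cells and for gas-exchange capillaries alike. Ackr1 UMIs were found in 23 of its cells and Selp UMIs in 40, and 15 cells had both. Apln was in 100 cells and Esm1 in 30, and 20 had both. Apln overlapped with Ackr1 in 1 cell and with Selp in 9, and Esm1 with neither, in 0 cells each. The 280 cells were therefore described as 48 with Ackr1 or Selp, 91 with Apln but neither of these, and 141 with none of the 3, a split read from the data and left untested.

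Of the 7 venous list genes that the split did not use, 6 were highest in the cells with Ackr1 or Selp, and Ephb4, a receptor of venous endothelium, was not (113 CPM there, 151 CPM in the Apln cells and 126 CPM in the rest). Vwf was at 1618 CPM in them, 207 CPM in the Apln cells and 583 CPM in the rest, and the leukocyte adhesion molecule Vcam1 at 664, 44.2 and 84.2 CPM in the same order. Apln cells led for the peptide hormone Adm (7.07 CPM in the cells with Ackr1 or Selp, 142 CPM in the Apln cells and 31.0 CPM in the rest), for the vessel-destabilising ligand Angpt2 (70.7, 172 and 35.4 CPM) and for Prnd, a prion-like protein of endothelium (17.7, 207 and 62.0 CPM). Of the tip cell list without Apln, all but Insr (102, 51.1 and 79.8 CPM) and Apold1 (24.7, 2.32 and 13.3 CPM) were highest in the Apln cells. The collagen chain Col4a1 was at 1088, 2442 and 1835 CPM. Of the other gas-exchange capillary genes, Car4 (45.9, 69.7 and 33.2 CPM), Ednrb, Tbx2 and Prx were also highest in the Apln cells, and Fibin was not. Of the general capillary list, Gpihbp1 (325, 1385 and 988 CPM), Kit and Cd93 were highest there, and Aplnr, Sema3c, Cd36 and Ptprb were not. Whether the Apln cells are sprouting or capillary cells was not tested. Plvap did not follow this split, with 887, 974 and 877 CPM. Median depths were 4705, 3833 and 2729 UMIs, so a missing UMI said least in the cells with none of the 3 genes.

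**Figure D2:**
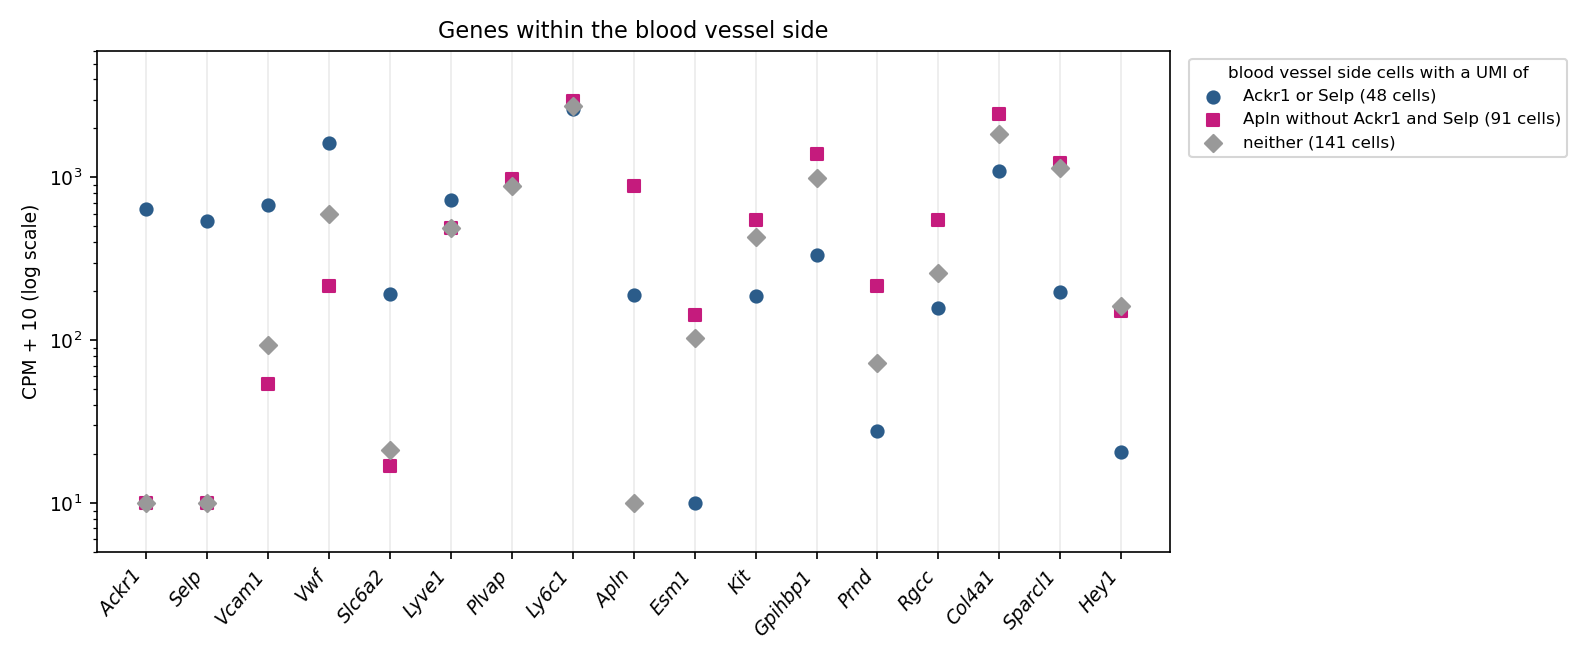
Level of 17 genes (CPM + 10, log scale) in the 3 groups of blood vessel side cells, 48 with a UMI of Ackr1 or Selp (circles), 91 with Apln but neither of these (squares) and 141 with none (diamonds). Vcam1 and Vwf are highest in the circles and Prnd and Rgcc in the squares, while the Plvap and Ly6c1 symbols lie together; Ackr1, Selp and Apln defined the groups.

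Set against cluster 10, the capillary-type endothelium of the same tumours, cluster 11 was higher for all 12 genes of the tip cell list, with a median fold of 2.28, where 1006 of 1698 genes were higher and the median fold was 1.07. Apln was at 356 CPM in cluster 11 and 105 CPM in cluster 10, and Angpt2 at 98.2 and 16.4 CPM. Of 11 basement membrane and matrix genes, 10 were higher in cluster 11, such as the matrix glycoprotein Sparc (3234 and 857 CPM) and the heparan sulfate proteoglycan Hspg2 (148 and 15.1 CPM). All 12 cell cycle genes were higher as well, mostly at low levels, for instance Top2a at 41.1 and 4.41 CPM. The reverse held for antigen presentation by MHC class II, where 0 of 7 genes were higher, with Cd74, the invariant chain, at 680 CPM in cluster 11 and 2372 CPM in cluster 10. Of 6 genes of gas-exchange capillaries, 1 was higher in cluster 11, and Car4 (carbonic anhydrase 4) was at 68.0 CPM in cluster 11 and 596 CPM in cluster 10. Cluster 10 cells had a median of 1440 UMIs. These folds compare clusters made from the same genes and carry no test.

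Cluster 11 was a small share of every mouse's cells. It made up 0.211, 0.195 and 0.306% of the cells of the SHP099 mice, 1.37, 0.218 and 0.175% in SX682 mice, 0.755, 0.517 and 1.09% in Combination mice, and 2.22, 1.02 and 1.10% in Vehicle mice. Every SHP099 mouse lay below every Vehicle mouse, and the SX682 mice were spread from below the SHP099 range to within the Vehicle range. The means were 0.237 ± 0.0600% with SHP099, 0.589 ± 0.680% with SX682, 0.787 ± 0.288% with Combination and 1.45 ± 0.669% with Vehicle (SD, n = 3 mice each). Over the 4 treatments the difference did not pass an exact permutation test on logit shares (15400 arrangements, p = 0.0512, adjusted p = 0.0938 over the 33 clusters). The share tests used the F statistic over all 4 treatments, which has no direction. Without SX682 mouse 1, which gave 52 of that group's 66 cells, the adjusted exact p was 0.0155. Leaving out any other single mouse, it was 0.119 to 0.213.

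Among the cells of both endothelial clusters together, the share of cluster 11 was 12.9, 42.9 and 58.3% in SHP099 mice, 15.4, 15.8 and 55.6% in SX682 mice, 14.5, 25.7 and 33% in Combination mice, and 55.5, 68.6 and 69.0% in Vehicle mice. All 3 Combination mice lay below all 3 Vehicle mice, while SHP099 mouse 3 and SX682 mouse 3 reached the Vehicle range with 12 and 9 endothelial cells in all. The exact permutation test over the 4 treatments gave p = 0.139, and 0.0417 without SX682 mouse 3. Leaving out any other single mouse, it gave 0.0577 to 0.281. Scgb3a1, one of the genes that led the cluster against all other cells, also fell with Combination, and its part in how cells fell into clusters was not tested.

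The lymphatic share of the resolved cells was 14.3, 0 and 0% in SHP099 mice, 15.8, 20 and 40.0% in SX682 mice, 31.0, 15.4 and 16.0% in Combination mice, and 16.5, 0 and 3.57% in Vehicle mice. The highest values, in SX682 mouse 3 and Combination mouse 1, came from 2 of 5 and 9 of 29 cells. Means were 4.76 ± 8.25% with SHP099, 25.3 ± 12.9% with SX682, 20.8 ± 8.86% with Combination and 6.70 ± 8.70% with Vehicle (SD, n = 3 mice each). The exact permutation test gave p = 0.0731. Without Vehicle mouse 1 it gave 0.0109, and without any other single mouse 0.0690 to 0.158. With cells thinned to 1000 UMIs it gave 0.571, over the mice that kept at least 5 resolved cells. With Lyve1 left out of the side rule it gave 0.369. The counts of lymphatic cells were then 1, 0 and 0 with SHP099, 3, 1 and 2 with SX682, 9, 3 and 1 with Combination, and 17, 0 and 1 with Vehicle.

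**Figure D3:**
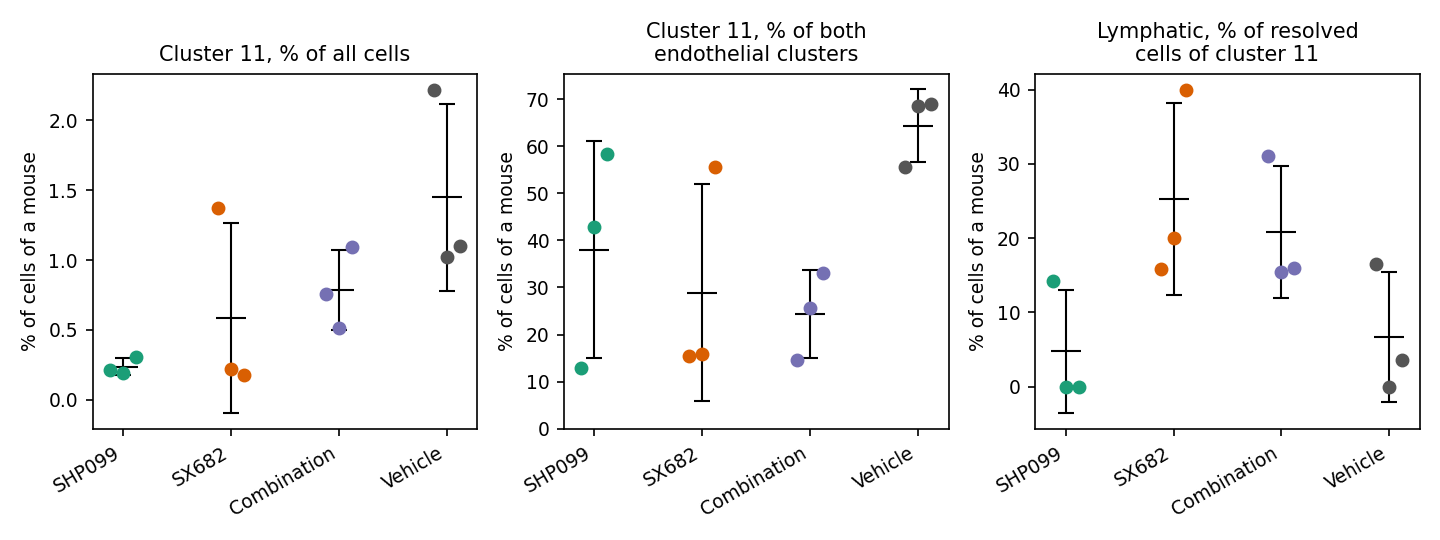
Cluster 11 as a percent of all cells (left), as a percent of both endothelial clusters (middle) and the lymphatic percent of its resolved cells (right), for each of the 12 mice by treatment; points are mice, bars the mean and SD of 3 mice. In the left panel all SHP099 mice, SX682 mice 2 and 3 and Combination mice 1 and 2 sit below the Vehicle mice. The 3 Vehicle mice sit above 55% in the middle panel, as do SHP099 mouse 3 and SX682 mouse 3. In the right panel Vehicle overlaps every other treatment, while all SHP099 mice sit below all SX682 and Combination mice.

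Within the lymphatic side, levels by treatment rest on 1, 9, 17 and 21 cells with SHP099, SX682, Combination and Vehicle, and too few cells per mouse for a test. Mice 1 to 3 gave 6, 1 and 2 cells with SX682, 9, 4 and 4 with Combination, and 20, 0 and 1 with Vehicle. The Vehicle levels are thus mostly those of 1 mouse. The cells placed mainly by Lyve1, without a UMI of Ccl21a or Mmrn1, are included. Mmrn1 was at 3858 CPM with SX682 (95% Poisson interval 3274 to 4515), 2449 CPM with Combination (2045 to 2910) and 4189.8 CPM with Vehicle (3830 to 4574). Ccl21a was at 9159, 5923 and 3937 CPM in that order. Plvap was at 548, 418 and 1018 CPM on the lymphatic side. The single SHP099 cell had 111 UMIs of Ccl21a and 26 of Mmrn1. The intervals cover counting error alone, and differences between mice are not in them.

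Treatment effects on genes were tested on UMI sums per mouse with edgeR's quasi-likelihood test, all treatments in 1 fit, two-sided, with Benjamini-Hochberg adjustment over all genes tested and a call at an adjusted p below 0.05. Mice needed at least 10 cells, which left 3 Combination mice, 3 Vehicle mice and SX682 mouse 1. For SHP099, whose mice had 6 to 8 cells, the contrasts come from a fit with at least 5 cells and all 12 mice. A lone SX682 mouse is assumed to vary like the other groups.

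Combination against Vehicle gave the clearest change, a fall in 4 genes (0.119%) and a rise in 1 (0.0297%) of 3367 tested (0.149% in all). Scgb3a1, a secretoglobin otherwise known from airway epithelium, was at 129, 124 and 164 CPM in Combination mice and 473, 631 and 737 CPM in Vehicle mice. It fell by 2.14 ± 0.25 on the log2 scale (SE, adjusted p = 0.00253). The Combination mice lay together and well below all Vehicle mice. It was a gene of the blood vessel cells, at 55.7 CPM on the lymphatic and 549 CPM on the blood vessel side. UMIs of it were in 125 of the 385 cells, with 2.33 CPM in all cells outside the cluster. It was not limited to cluster 11, as cluster 10 had 95.8 CPM, with UMIs in 43 of its 881 cells. Within the blood vessel side it was at 77.7 CPM in the cells with Ackr1 or Selp, 451 CPM in the Apln cells and 937 CPM in the rest, and the last of these made up 35.0, 54.5 and 38.1% of the blood vessel cells in Combination mice and 42.6, 59.4 and 63.0% in Vehicle mice. The part of this makeup in the fall was not tested. Scgb3a1 UMIs came from 4, 5 and 7 cells in Combination mice and 51, 15 and 15 cells in Vehicle mice.

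Xbp1, the transcription factor of the unfolded protein response, was at 209, 271 and 257 CPM in Combination mice and 577, 739 and 764 CPM in Vehicle mice, and fell by 1.52 ± 0.22 (SE, log2, adjusted p = 0.0126). The groups did not overlap, which was part of the rule for naming called genes. In all other cells outside both endothelial clusters, Xbp1 went the other way, with 160.3, 171 and 156 CPM with Combination and 129, 136 and 133 CPM with Vehicle. Depp1, a small protein induced by FOXO transcription factors, was at 24.1, 22.6 and 61.7 CPM in Combination mice and 210.0, 352 and 135 CPM in Vehicle mice, and fell by 2.73 ± 0.47 (SE, log2, adjusted p = 0.0391). It was nearly absent outside endothelium, at 0.727 CPM or less with Combination and 1.12 CPM or less with Vehicle.

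The remaining pair of called genes moved alike in the rest of the tumour. Pkm, the last enzyme of glycolysis, was at 177, 192 and 226 CPM in Combination mice and 457, 489 and 440.1 CPM in Vehicle mice, and fell by 1.25 ± 0.21 (SE, log2, adjusted p = 0.0391). In all other cells it was at 292, 304 and 299 CPM with Combination and 723, 620.3 and 691 CPM with Vehicle. Chchd2, a mitochondrial protein, was at 675, 755 and 627 CPM in Combination mice and 348, 313 and 269 CPM in Vehicle mice, and rose by 1.09 ± 0.19 (SE, log2, adjusted p = 0.0427). All other cells had 645, 656 and 671 CPM of it with Combination and 353, 350.2 and 369 CPM with Vehicle. Such shifts across all cells of a capture go with treatment and capture at once, which cannot be told apart.

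The calls depended on single mice. Leaving out Combination mouse 2 left 1 call, and leaving out Vehicle mouse 1 or 3 gave 18 or 17. Of 15 alternatives, the call of Scgb3a1 was lost in 1 (where mice with 5 cells entered the fit), that of Xbp1 in 1, Depp1 in 2, Pkm in 4 and Chchd2 in 6. The 4 given markers did not pass in any of the 5 contrasts, with the log2 change for Combination over Vehicle at 1.41 ± 0.91 for Ccl21a, -0.15 ± 0.63 for Mmrn1, -0.31 ± 0.24 for Plvap and 0.05 ± 0.25 for Lyve1 (SE, adjusted p of 0.593, 0.960, 0.645 and 0.967).

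**Figure D4:**
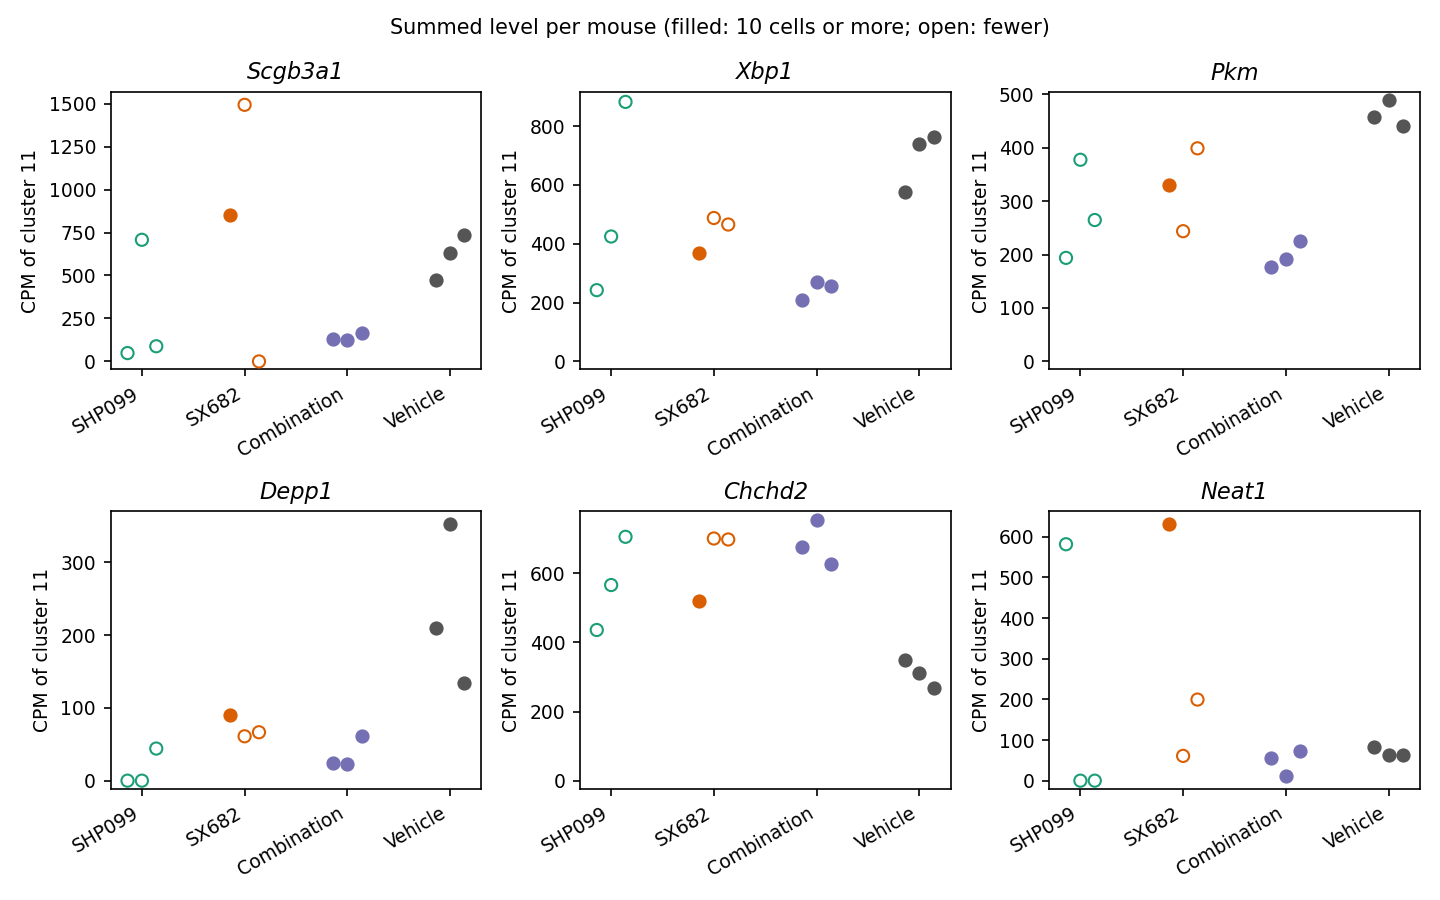
Summed level (CPM) of 6 genes in cluster 11 for each of the 12 mice by treatment; filled points are mice with at least 10 cells and open points mice with fewer. The 3 Combination points lie below the 3 Vehicle points for Scgb3a1, Xbp1, Pkm and Depp1 and above them for Chchd2, and SX682 mouse 1 stands out for Neat1.

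Restricted to blood vessel cells, a choice made after the first results, Combination against Vehicle gave 9 higher (0.326%) and 14 lower (0.507%) genes of 2759 (0.834% in all). All 5 genes called over the whole cluster were among these 23 (100% and 21.7% of the 2 lists). The higher genes included interferon-induced ones. Gbp2, a guanylate-binding protein of cell-intrinsic defence, was at 239, 218 and 714 CPM in Combination mice and 78.4, 77.3 and 161 CPM in Vehicle mice, and rose by 1.97 ± 0.41 (SE, log2, adjusted p = 0.0371). Igtp, an immunity-related GTPase, was at 167, 191 and 119 CPM in Combination mice and 22.4, 11.9 and 70.4 CPM in Vehicle mice, and rose by 2.42 ± 0.53 (adjusted p = 0.0415). Ifi27l2a, an interferon-induced mitochondrial protein, rose by 1.77 ± 0.40 (adjusted p = 0.0461), with UMIs in 2, 6 and 2 cells of the Combination mice and 4, 4 and 2 cells of the Vehicle mice. H2-Q6, an MHC class I gene with near-identical neighbours among which reads may be split, rose by 1.52 ± 0.32 (adjusted p = 0.0371). The groups did not overlap in any of these 4, and non-overlap was part of the rule by which called genes were named.

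Pdgfa and Prnd were also among the rising genes. Pdgfa, a growth factor for mesenchymal cells, was at 108, 218 and 198 CPM in Combination mice and 26.9, 35.7 and 60.3 CPM in Vehicle mice, a rise of 2.22 ± 0.44 (SE, log2, adjusted p = 0.0317). Prnd was at 263, 218 and 145 CPM in Combination mice and 76.1, 59.5 and 60.3 CPM in Vehicle mice, a rise of 1.57 ± 0.33 (adjusted p = 0.0371). Prnd was at 0 in cluster 10 in all 12 mice. Of 9 tested genes of the tip cell list, 0 passed in either direction on the blood vessel side, with 0 as well at an unadjusted p below 0.05, and their median change was 0.23 against 0.00045 for all genes.

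Of the lists of 10 hypoxia and glycolysis genes and 12 immediate early genes, 5 and 10 were tested on the blood vessel side, and 0 of either passed (2 of each at an unadjusted p below 0.05), with medians of -0.24 and -0.37. The falling genes were others. Ddit4, a stress-induced inhibitor of mTORC1, was at 59.7, 81.9 and 119 CPM in Combination mice and 251, 238 and 272 CPM in Vehicle mice, and fell by 1.59 ± 0.32 (SE, log2, adjusted p = 0.0317). The glycolytic enzyme Aldoa was at 167, 136 and 185 CPM in Combination mice and 372, 351 and 473 CPM in Vehicle mice and fell by 1.31 ± 0.26 (adjusted p = 0.0317). Ddit4 was also lower in all other cells, at 38.9, 44.7 and 42.3 CPM with Combination and 112, 82.2 and 85.6 CPM with Vehicle. The phosphodiesterase Pde4b was at 143, 136 and 159 CPM in Combination mice and 392, 541 and 272 CPM in Vehicle mice and fell by 1.52 ± 0.29 (adjusted p = 0.0317). Ier3, an early-response gene induced by ERK, was at 287, 191 and 92.6 CPM in Combination mice and 416, 577 and 473 CPM in Vehicle mice and fell by 1.38 ± 0.30 (adjusted p = 0.0407). Ier3 was the only 1 of 6 tested genes of the ERK target list to pass, and 5 of the 6 had a negative change. Over all 2759 genes, 14 were called lower (0.507%), and about as many changes were negative as positive. The list as a set was not tested.

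Like the whole-cluster calls, these varied with the mice, from 1 call without Combination mouse 2 to 60 without Vehicle mouse 3. Scgb3a1 kept its call in 12 of 12 alternatives on the blood vessel side, and Depp1, Xbp1 and Pkm lost theirs only without Combination mouse 2. Gbp2 lost its call in 5 of 12, and Igtp in 7 of 11.

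The interferon lists as a whole had positive changes with Combination in the full cluster, where none of their genes passed. Of 13 interferon gamma genes 11 were tested, all 11 positive (Gbp5 turned negative without Vehicle mouse 1 or 2), 8 at an unadjusted p below 0.05, with a median log2 change of 1.61. Over all 3367 genes, 1701 were positive and 382 had an unadjusted p below 0.05. On the blood vessel side the median was 1.73, with 2 of 11 called, against medians of 0.01 and 0.00045 over all genes. For Iigp1, a GTPase of the same family as Igtp, Combination mice had 233, 507 and 236 CPM in cluster 11 and Vehicle mice 65.7, 96.6 and 162 CPM (1.71 ± 0.39, adjusted p = 0.106). Type I interferon genes were positive in 6 of 6 (median 1.34), MHC class I genes in 8 of 8 (median 0.60) and MHC class II genes in 4 of 4 (median 1.04), with 0 called in each.

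Whether the response of cluster 11 differed from that of cluster 10 was tested over 4364 genes. With Combination, 1 difference was positive (0.0229%) and 3 were negative (0.0687%, 0.0917% in all), and with SX682 all 5 were positive (0.115%). Of the 13 interferon gamma genes 0 passed with Combination, 1 at an unadjusted p below 0.05, and their differences were negative in all 13, with a median of -0.74 against -0.07 over all genes. With SX682 the median of the interferon gamma list in cluster 11 was 0.53, from the 1 mouse tested, and with SHP099 it was -0.75, with 3 of 7 positive. These comparisons share the Vehicle mice. RNA of other cells moved beside these lists. The summed level of 4 neutrophil genes, all 4 detected, was 891 to 2604 CPM in Combination mice and 44.9 to 760.0 CPM in Vehicle mice, against 143507 CPM in the neutrophil cluster. The 6 macrophage genes, all detected, summed to 135 to 707 CPM with Combination and 62.9 to 1478 CPM with Vehicle, and the T cell genes, without Cd8a, to 33.8 to 48.2 CPM with Combination and 5.68 to 38.5 CPM with Vehicle. The 4 tumour cell genes, all detected, went the other way, with 0 to 33.8 CPM in Combination mice and 62.5 to 591 CPM in Vehicle mice. Their part in the results was not tested.

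**Figure D5:**
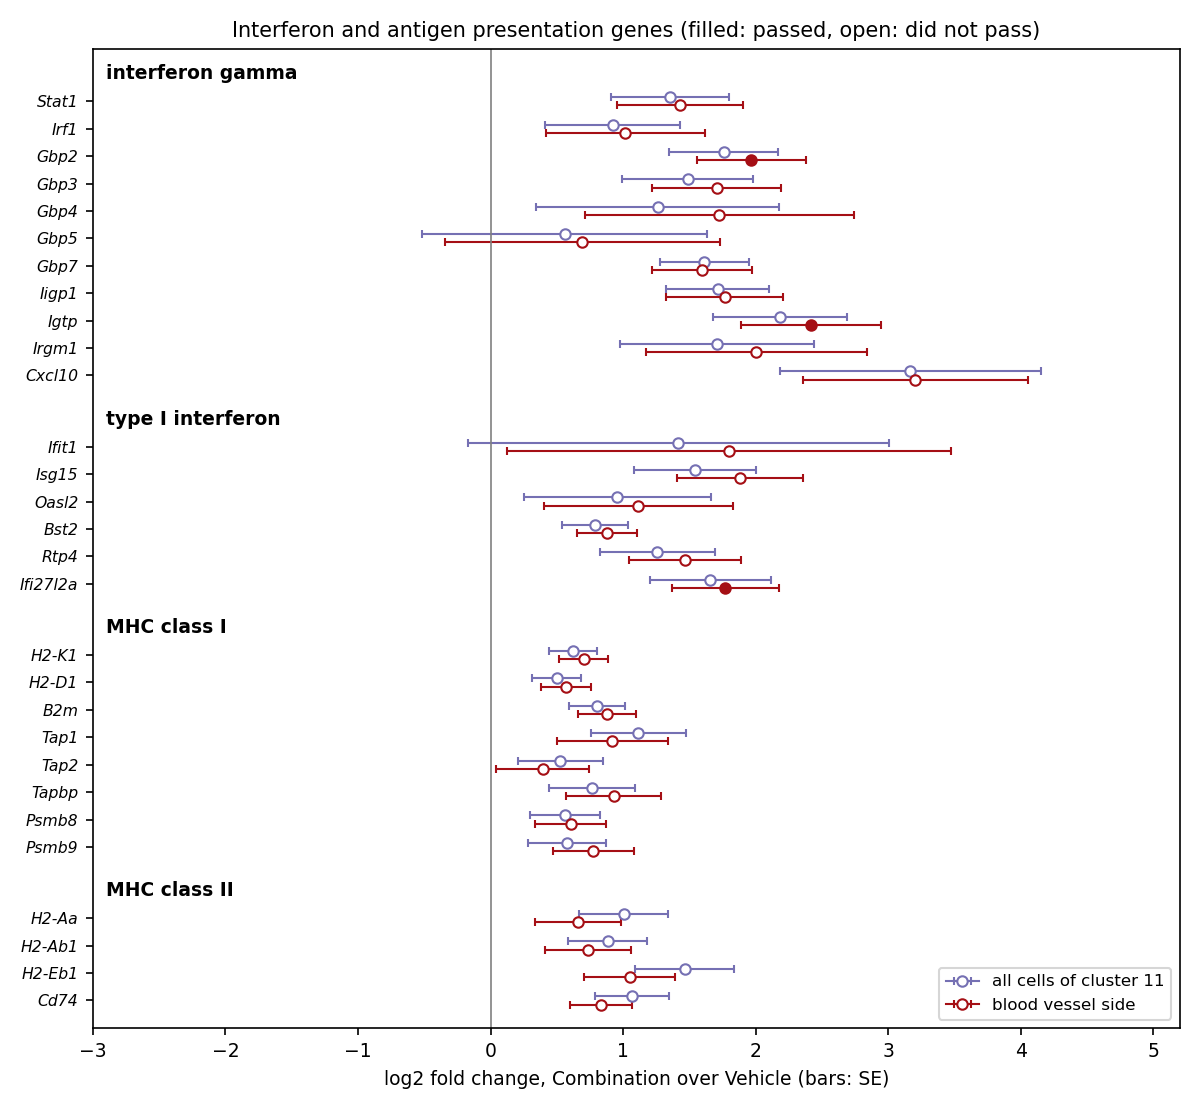
Log2 fold change of Combination over Vehicle with its SE for each tested gene of the interferon gamma, type I interferon, MHC class I and MHC class II lists, in all cells of cluster 11 and on its blood vessel side (3 mice each); filled points passed at an adjusted p below 0.05. All points lie above 0, and only Gbp2, Igtp and Ifi27l2a on the blood vessel side are filled.

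SX682 against Vehicle rested on SX682 mouse 1 and gave 2 higher genes of 3367 (0.0594%). Neat1, a nuclear long noncoding RNA of paraspeckles, was at 631 CPM in this mouse and 81.8, 62.5 and 62.9 CPM in Vehicle mice (3.11 ± 0.37, SE, log2, adjusted p = 0.00274). SX682 mice 2 and 3, below the limit on cells, had 60.9 and 199 CPM, and the call was lost when they entered. In mouse 1, 1 cell held 127 of the 132 Neat1 UMIs. The metal-binding metallothionein Mt1 was at 306 CPM in mouse 1 and 41.7, 17.0 and 8.98 CPM in Vehicle mice (3.32 ± 0.46, adjusted p = 0.00871). It was at 0 in the other two SX682 mice, and 1 cell, on the lymphatic side, held 59 of the 64 Mt1 UMIs of mouse 1. Both calls thus rest on 1 cell each. With at least 5 cells a mouse, 0 genes passed.

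Combination against SX682, with the same single mouse, gave 1 higher (0.0297%) and 2 lower genes (0.0594%) of 3367 (0.0891% in all). Scgb3a1 stood at 129, 124 and 164 CPM in Combination mice and 851 CPM in SX682 mouse 1, and fell by 2.63 ± 0.30 (SE, log2, adjusted p = 0.000926), while SX682 mice 2 and 3 had 1493 and 0 CPM. Neat1, set by the same cell of SX682 mouse 1, fell by 3.72 ± 0.43, and Prnd rose by 4.95 ± 0.76, with 177, 214 and 113 CPM in Combination mice and 4.78 CPM in SX682 mouse 1. SX682 mouse 2 had 122 CPM of Prnd, and with at least 5 cells a mouse 0 genes passed in this contrast as well.

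SHP099 against Vehicle gave 0 calls of 2117 genes (0%) with edgeR over the whole cluster, 234 at an unadjusted p below 0.05, and 34 with DESeq2. Combination against SHP099 also gave 0 (0%), with 155 at an unadjusted p below 0.05 and 4 with DESeq2. The SHP099 sums hold 20638 to 22670 UMIs a mouse, against 111329 to 623700 in Vehicle mice. On the blood vessel side, with 5 to 7 cells a mouse, 8 genes were higher (0.252%) and 33 lower (1.04%) of 3178 (1.29% in all). Mgp, an inhibitor of calcification in vessel walls, was at 1639, 532 and 2735 CPM in SHP099 mice and 266, 89.2 and 342 CPM in Vehicle mice (2.55 ± 0.53, SE, log2, adjusted p = 0.0182). Every SHP099 mouse lay above every Vehicle mouse, as the naming rule required. Mgp UMIs were in 4, 2 and 2 cells of the SHP099 mice and 15, 5 and 6 cells of the Vehicle mice. The 4 pericyte genes, all detected in cluster 11, summed to 0 to 1015 CPM on the blood vessel side in SHP099 mice, highest in mouse 3, and 0 to 239.6 CPM in Vehicle mice, and their part in the Mgp values was not tested. Tuba1b, an alpha tubulin, was at 328, 822 and 265 CPM in SHP099 mice and 112, 113 and 101 CPM in Vehicle mice (1.82 ± 0.43, adjusted p = 0.0275), and 1 cell held 11 of the 17 UMIs of SHP099 mouse 2.

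Called genes were named by size of fall among those without overlap of the groups. With SHP099 these were Glod5 (-7.32, log2), Depp1 (-4.06), Ddit4 (-3.07), Bnip3l (-2.83), Ldha (-2.35), Eif5a (-2.20), Prelid1 (-2.11), Aldoa (-1.93), S100a10 (-1.79) and Anxa2 (-1.74). Their mean levels were 0 to 230 CPM in SHP099 mice and 182 to 738 CPM in Vehicle mice. S100a6 (-3.26) was called as well, with overlapping groups, and Ldha was the only called gene of the hypoxia and glycolysis list. Blood vessel side sums held 12200, 20674 and 22670 UMIs in SHP099 mice and 99442 to 446616 in Vehicle mice. The lowest SHP099 means, 0 for Glod5, 14.7 CPM for Depp1 and 32.2 CPM for Ddit4, thus rest on few UMIs. Depp1, Ddit4 and Aldoa were also called lower with Combination on this side. Smaller falls were found for 12 genes of ribosomal proteins, of 80 tested, led by Rplp0. It was at 1148, 1548 and 2073 CPM in SHP099 mice and 3773, 3794 and 3600.1 CPM in Vehicle mice, and fell by 1.49 ± 0.27 (SE, log2, adjusted p = 0.0152). In all other cells Rplp0 was at 2249, 2493 and 2568 CPM with SHP099 and 5055, 4639 and 4289.8 CPM with Vehicle. Mitochondrial transcripts took 3.63 to 4.76% of the UMIs of cluster 11 in SHP099 mice and 2.62 to 2.89% in Vehicle mice. The whole set of SHP099 calls was unstable: it was 0 with only the 2 treatments in the fit, 1 without SX682 mouse 1, and 17 with DESeq2 size factors, where 9 were higher and 8 lower.

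The genes of the drug targets were measured at low depth. Ptpn11 had UMIs in 80 of the 385 cells (20.8%), and its summed level was 0, 142 and 88.2 CPM in SHP099 mice, 52.6, 91.4 and 33.2 CPM in SX682 mice, 48.2, 45.1 and 72.0 CPM in Combination mice and 64.1, 68.2 and 8.98 CPM in Vehicle mice. An inhibitor need not change its target's RNA, so these levels do not check the labels. Cxcr2 had UMIs in 3 of the 385 cells (0.779%) and Cxcr1 in 1, against 20.9% and 0.107% of the neutrophil cluster, whose median depth was 1772 UMIs. In cluster 10, Cxcr2 UMIs were in 11 of the 881 cells (1.25%). Free RNA was not measured, and a Cxcr2 share this low is not read as expression.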

How the data were processed

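The authors deposited raw UMI counts per gene and cell and a table with each cell's cluster number, treatment and hashtag replicate; per the submitters' processing notes Cell Ranger and the mm10 build were used, and per the file headers cells were clustered with iCellR. The sources used here name no alignment, cell filter or doublet settings. Bulk libraries of the series were not used. No cell was removed and no doublet caller was run. The 8 numeric columns of embedding coordinates were not used. UMIs were summed per mouse and tested with edgeR 4.0.16 (R 4.3.3, TMM scaling, filterByExpr), with DESeq2 1.42.0 as an alternative. SEs are the log2 fold change divided by the root of F. No SHP099 mouse reached the planned 10 cells, so SHP099 contrasts came from the fit with 5, and whether their response differs from that of cluster 10 could not be fitted. Shares were tested by exact permutation of the 12 mice. The labels do not say that equal hashtag numbers mark paired mice. Named genes were those passing with non-overlapping groups and an average of at least 5 log2 CPM (up to 10 each way), where fewer than 5 passed those with the smallest p-values, the given markers, drug targets, list genes and, for the cluster and its sides, up to 15 genes by fold; a few other genes given as values, such as Ankrd37, were chosen after their values were seen. Of 356 looked-up symbols 356 matched GENCODE. Members, lists and tests were chosen with earlier results of these data known, and a fit to blood vessel cells alone was added after seeing the data. The fits were tested on simulated data. Intervals cover counting error only, and p-values cover the spread between mice within single captures.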

Additional observations from a re-analysis of the deposited data

Results flagged for a closer look

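The treatment response of cluster 11 was set against that of cluster 10 in edgeR, with mouse as a term, over 4364 genes. Differences passed for 4 genes with Combination (0.0917%) and 5 with SX682 (0.115%), the SX682 ones resting on SX682 mouse 1.

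Ccl5, a chemokine for T cells, differed by -3.56 (log2, adjusted p = 4.75e-05). It was at 8.04, 33.8 and 20.6 CPM in Combination mice and 83.4, 119 and 80.8 CPM in Vehicle mice in cluster 11, but at 665, 603 and 635 CPM and 359, 37.1 and 214 CPM in cluster 10. It held in all 9 alternatives. In cluster 11, 1 cell held 20 of the 21 Ccl5 UMIs of Vehicle mouse 2 and 1 cell all 9 of Vehicle mouse 3. Ccl5 was at 2780.1, 1533 and 1761 CPM with Combination and 714, 1025 and 917 CPM with Vehicle in all other cells, whose part in this was not tested.

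Fos, an early-response transcription factor, differed by -2.38 with Combination (adjusted p = 0.0304), and S100a6, a calcium-binding protein, by -1.96 (adjusted p = 0.000136). S100a6 was at 1085, 361 and 329 CPM with Combination and 1249, 1739 and 341 CPM with Vehicle in cluster 11. In Vehicle mouse 2, 1 cell held 230 of the 306 S100a6 UMIs. The calls of Fos and S100a6 were lost in 5 and 4 of 9 alternatives.

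Igfbp5, a binding protein of insulin-like growth factors, differed by 7.23 with Combination (adjusted p = 5.05e-11) and by 3.70 with SX682 (adjusted p = 0.00715). In cluster 11 it was at 1029, 0 and 0 CPM in Combination mice and 46.5, 0 and 62.9 CPM in Vehicle mice, so 1 mouse set the first value. All 128 UMIs of that mouse were in 2 lymphatic cells, 97 of them in 1, and the 28 UMIs of SX682 mouse 1 were also in 2 lymphatic cells.

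With SX682, Dnah8 differed by 2.65 (adjusted p = 0.0334), Car4 by 2.70 (adjusted p = 0.00563), Scgb3a1 by 2.78 (adjusted p = 0.000717) and Neat1 by 3.63 (adjusted p = 3.96e-06). Of the 132 Neat1 UMIs of that mouse 127 were in 1 cell, and of its 33 Car4 UMIs 23 were. Without Vehicle mouse 1, Dnah8, Car4 and Scgb3a1 lost their calls.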

How the results depend on the processing

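For SX682 against Vehicle (2 calls), DESeq2 gave 1, no filter 33 and at least 5 cells a mouse 0, and leaving out 1 mouse gave 2 to 8. For Combination against Vehicle (5), DESeq2 gave 14, no filter 96, only the 2 treatments 11, at least 5 cells 3 and the blood vessel side 23, with 1 to 18 leaving out 1 mouse. For Combination against SX682 (3), these were 11, 36, 42 and 0 in the order DESeq2, no filter, only the 2 treatments and at least 5 cells, with 2 to 6. For SHP099 against Vehicle (0), DESeq2 gave 34, no filter 159, the blood vessel side 41 and leaving out SX682 mice 2 and 3 gave 10, with 0 to 6. For Combination against SHP099 (0), DESeq2 gave 4, no filter 44 and only the 2 treatments 1, with 0 to 2. On the blood vessel side, Combination against Vehicle (23) gave 83 with no filter and 15 with only the 2 treatments, with 1 to 60, and SHP099 against Vehicle (41) gave 17 with DESeq2 size factors, 202 with no filter and 0 with only the 2 treatments, with 1 to 52. The difference from cluster 10 with SX682 (5) gave 1 with no filter and 3 to 9 leaving out 1 mouse, and with Combination (4) 1 to 8.

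In gene levels, Combination and Vehicle mice of equal hashtag number did not deviate together, with correlations of 0.160, 0.0711 and -0.0354 for numbers 1 to 3. They were not taken as pairs. With the replicate block the calls were 30 for Combination against Vehicle, 8 for Combination against SX682 and 2 for Combination against SHP099. The share among endothelial cells had an exact permutation p of 0.0347 with this block, against 0.139 without it. That share rose from number 1 to 3 in all 4 treatments, and whether the numbers mark paired mice is not stated.

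Leaving out 1 mouse, the exact permutation p ranged from 0.0155 to 0.213 (adjusted) for the share of all cells, 0.0417 to 0.281 for the share of endothelial cells and 0.0109 to 0.158 for the lymphatic share. Signs turned for Gbp5 with Combination, at -0.11 and -0.04 without Vehicle mouse 1 or 2 (up to 0.75 over all omissions), and for the Igfbp5 difference, at -3.03 with SX682 without Vehicle mouse 1 (up to 4.09) and -3.73 with Combination without Combination mouse 1 (up to 11.79). In each case above the cause was not tested. Alternatives with the blood vessel side, without SX682 mice 2 and 3 and without Lyve1 were chosen after seeing the data. The low numbers of cells, 21 in 3 mice with SHP099 and 48 on the lymphatic side, limit the precision of these levels.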

Other observations

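Chemokine genes are given for both endothelial clusters as values with no test. Cxcl12, which retains CXCR4-bearing cells, was at 122 CPM in cluster 11 and 415 CPM in cluster 10, and Cxcl2, a ligand of CXCR2, at 175 and 873 CPM. Cxcl1 was at 0.642 CPM in cluster 11 and 4.41 CPM in cluster 10, and Cxcl5 had no UMI in cluster 11. On the lymphatic side Il33, an alarm cytokine, was at 37.1 CPM, against 5.15 CPM on the blood vessel side, and the venous transcription factor Nr2f2 at 497 and 76.4 CPM. Ankrd37, a hypoxia-induced gene, was at 16.1, 11.3 and 0 CPM in Combination mice and 44.9, 222 and 53.9 CPM in Vehicle mice in cluster 11 and did not pass (-3.36 ± 0.96, SE, log2, edgeR adjusted p = 0.182). Apln cells without Ackr1 or Selp were 35.0, 31.8 and 47.6% of the blood vessel side in Combination mice and 41.6, 21.9 and 11.1% in Vehicle mice.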
